A study of Mus musculus with 6 samples.

Results

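The Hippo-YAP pathway was followed through 10 of its genes: the transcriptional coactivators Yap1 and Wwtr1 (TAZ), the DNA-binding factors Tead1, Tead2, Tead3 and Tead4, the kinases Lats1 and Lats2, and the angiomotins Amot and Amotl2. The genes were chosen by name, as the rows of the deposited expression table whose upper-case symbol matches, and all 10 were found among its 18388 genes. RNA-seq had been carried out on morula-like aggregates, clusters that model the compacting mouse embryo, made with expanded pluripotent stem cells of the mouse, a culture state described as able to form embryonic as well as extraembryonic lineages. All aggregates were kept in N2B27LCDM medium and then in an induction medium, at 37 °C with 5% CO2 and 20% O2. The control group holds 3 libraries treated with the vehicle DMSO, and the other group 3 libraries treated with PFOA (perfluorooctanoic acid, a persistent fluorinated surfactant). Not given in the sources used here are the dose, the length of exposure, the strain and the stem cell line or clone. Whether the replicates are separate cultures is not labelled either, and p-values then speak for the spread of these libraries alone, which may be technical.

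In the Hippo pathway, the kinases MST1 and MST2 with their partner SAV1 activate LATS1 and LATS2, which act with MOB1 and phosphorylate YAP and TAZ. Phosphorylated YAP and TAZ are held in the cytoplasm or degraded, whereas the unphosphorylated proteins enter the nucleus and switch on genes as partners of the TEAD factors, which bind DNA. In the mouse morula the pathway tells outer from inner cells: in polarised outer cells angiomotin is held at the apical membrane, YAP is nuclear and TEAD4 drives Cdx2 and Gata3, while in inner cells angiomotin at junctions helps to activate LATS. RNA-seq measures the transcripts of these genes and not the phosphorylation or location of the proteins.

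None of the 10 genes passed the test of PFOA against DMSO once all genes were taken into account. Of 11876 genes with a mean of at least 1 FPKM (fragments per kilobase of transcript, scaled to the mapped fragments of the library), 1 was called (0.00842%) at an adjusted p under 0.05, in limma with Benjamini-Hochberg adjustment, and 0 of the 10 pathway genes were. At an unadjusted p under 0.05 the pathway had 1 gene, Tead1, against 21.1% of all tested genes. All 10 pathway genes passed the filter on low values. On the scale of log2(FPKM + 1), 8 were higher in PFOA and 2 were lower, where 47.6% of all tested genes were higher. Their median log2 fold change was 0.041, and that of all tested genes −0.0065. The log2 fold changes ran from −0.085 to 0.19, and the 95% confidence intervals of the 10 genes together covered folds from 0.881 to 1.25 on that scale.

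Whole-library values set the frame for these comparisons. The FPKM of all genes added up to 641975 to 657239 per DMSO library and 585739 to 630644 per PFOA library, and any 2 libraries correlated across genes with a Spearman's rho of 0.988 to 0.991. The number of reads behind a value is unknown. The 8 epiblast markers, among them Pou5f1, Nanog and Sox2, were all above 1 FPKM, with a summed level of 4590 to 4802 FPKM in DMSO and 3948 to 4439 in PFOA. Most of this sum came from Dppa5a, with means of 2239 in DMSO and 1952 in PFOA, and from Pou5f1, with 979 and 885. Of the 8 markers, 3 were higher and 5 lower in PFOA. With a trend on transcript length removed, as described below, 5 were higher and 3 lower. The 10 trophectoderm markers summed to 535 to 610 in DMSO and 519 to 591 in PFOA, mostly from the keratins Krt8 and Krt18. The 7 primitive endoderm markers summed to 7.50 to 8.62 and 8.05 to 8.46, and the 10 fibroblast markers to 23.8 to 29.5 and 22.1 to 25.1. A mean of at least 1 FPKM was reached by 8 trophectoderm, 2 primitive endoderm and 7 fibroblast markers. Of these, 4, 1 and 1 were higher in PFOA and 4, 1 and 6 lower, with the same counts once the trend on length was removed. In these 4 lists 0 markers were at 0 in every library. Their part in the results below was not tested. In bulk RNA, fewer cells of a type and less RNA per cell cannot be told apart.

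The coactivators are the output arm of the pathway, and Yap1 was the more abundant. In DMSO 1, 2 and 3 Yap1 was at 43.61, 42.06 and 43.88 FPKM, and in PFOA 1, 2 and 3 at 46.72, 44.15 and 43.54; values of other genes are given in the same order. PFOA 1 was the highest of the 6 libraries, and the groups overlapped. The difference gave a log2 fold change of 0.052 (95% confidence interval −0.042 to 0.14; adjusted p = 0.494 in limma), so a change of Yap1 larger than 1.11-fold upward lies outside the interval. The log2 fold change was 0.022 without PFOA 1 and 0.033 without DMSO 2. Wwtr1, which encodes the YAP paralog TAZ, was 15.06, 13.14 and 14.10 FPKM in DMSO and 14.17, 13.98 and 15.23 in PFOA. Its groups overlapped, with a log2 fold change of 0.035 (SE 0.059, limma adjusted p = 0.767). Within a library Yap1 was 2.90, 3.20 and 3.11 times Wwtr1 in DMSO and 3.30, 3.16 and 2.86 times in PFOA. The mean ratio was 3.07 ± 0.157 and 3.10 ± 0.224 (SD, n = 3 each; two-sided exact permutation p = 0.8).

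**Figure D1:**
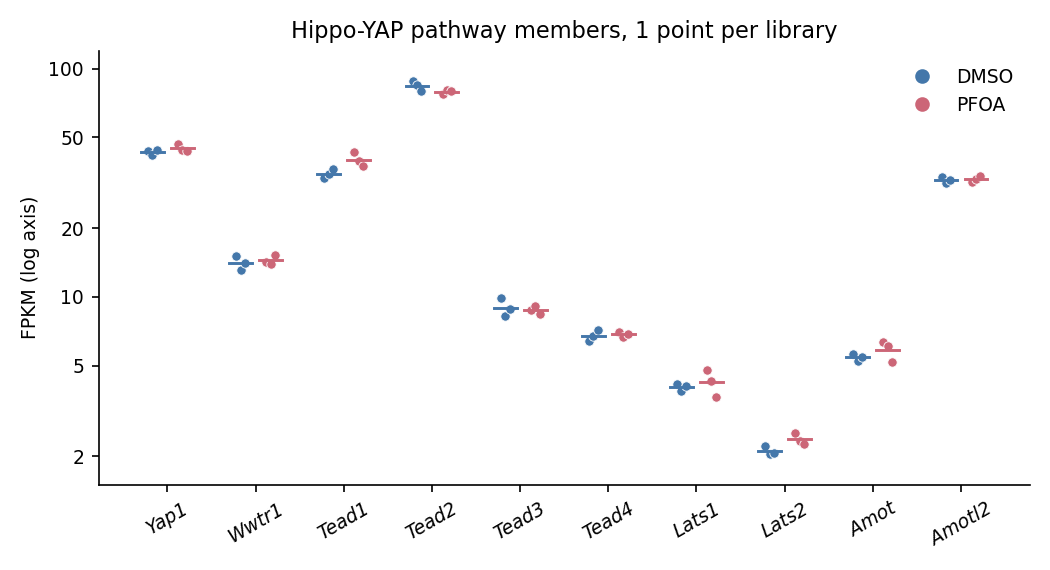
FPKM of the 10 pathway genes on a log axis, with 1 point per library, DMSO in blue and PFOA in red, and a bar at the mean of 3 libraries. Tead2 and Yap1 are the most abundant and Lats2 the least, and the groups stand apart without overlap for Tead1 and Lats2.

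The TEAD factors are 4 paralogs that share a DNA-binding domain, and their transcripts differed more than 10-fold in level. In DMSO, Tead2 was the highest at 84.3 ± 4.1 FPKM, followed by Tead1 at 34.7 ± 1.5, Tead3 at 8.96 ± 0.83 and Tead4, the paralog needed for trophectoderm, at 6.75 ± 0.38 (SD, n = 3 each). The ranges of these 4 genes did not overlap in DMSO or in PFOA, so Tead4 had the lowest TEAD transcript level in all 6 libraries. The motif that TEAD factors bind is GGAATG on one strand and CATTCC on the other.

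Tead1 showed the largest difference of the 10 genes. It was 33.25, 34.53 and 36.23 FPKM in DMSO and 43.00, 39.24 and 37.34 in PFOA. Each PFOA value lay above each DMSO value, with DMSO 3 and PFOA 3 closest to each other. The means were 34.7 and 39.9 FPKM, 15.0% higher in PFOA, a log2 fold change of 0.19 (95% confidence interval 0.064 to 0.33, unadjusted p = 0.0087) that did not pass in limma with Benjamini-Hochberg adjustment (adjusted p = 0.143); with DMSO 3 as the sole control it was 0.13. Tead2, the most abundant paralog here, was 88.29, 84.70 and 80.02 FPKM in DMSO and 77.89, 80.51 and 79.81 in PFOA. DMSO 1 and 2 were above all PFOA libraries, while DMSO 3 lay inside the PFOA range. Its log2 fold change was −0.085 (95% confidence interval −0.18 to 0.014, limma adjusted p = 0.296). It was −0.052 without DMSO 1 and −0.011 with DMSO 3 as the sole control.

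Tead3 was 9.85, 8.21 and 8.82 FPKM in DMSO and 8.72, 9.15 and 8.44 in PFOA, with the PFOA values inside the DMSO range. Tead4 was 6.38, 6.73 and 7.13 in DMSO and 7.03, 6.67 and 6.86 in PFOA, again inside it. Their log2 fold changes were −0.025 (SE 0.068) and 0.021 (SE 0.057), with limma adjusted p = 0.862 and 0.865. Without DMSO 1 the sign of both turned, to 0.038 and −0.014.

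The summed level of the 4 TEAD transcripts was 137.77, 134.17 and 132.20 FPKM in DMSO and 136.64, 135.57 and 132.45 in PFOA, that is 134.7 ± 2.8 against 134.9 ± 2.2 (SD, n = 3 each; two-sided exact permutation p = 0.9). Tead1 made up 24.1%, 25.7% and 27.4% of this sum in DMSO and 31.5%, 28.9% and 28.2% in PFOA. Tead2 made up 64.1%, 63.1% and 60.5% in DMSO and 57.0%, 59.4% and 60.3% in PFOA. The shares therefore did not overlap between the groups for Tead1 or Tead2, although DMSO 3 and PFOA 3 differed by less than 1 percentage point for both. The mean share of Tead1 was 3.78 percentage points higher and that of Tead2 3.70 points lower (exact permutation p = 0.1 for each, the smallest that 3 against 3 libraries allow; adjusted p = 0.267 over the 8 sums, shares and ratios compared). The shares are parts of 1 whole, so these are not independent differences. Tead3 held 6.65% in DMSO and 6.50% in PFOA and Tead4 5.01% and 5.08%, with overlapping libraries (exact permutation p = 0.7 and 0.8).

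**Figure D2:**
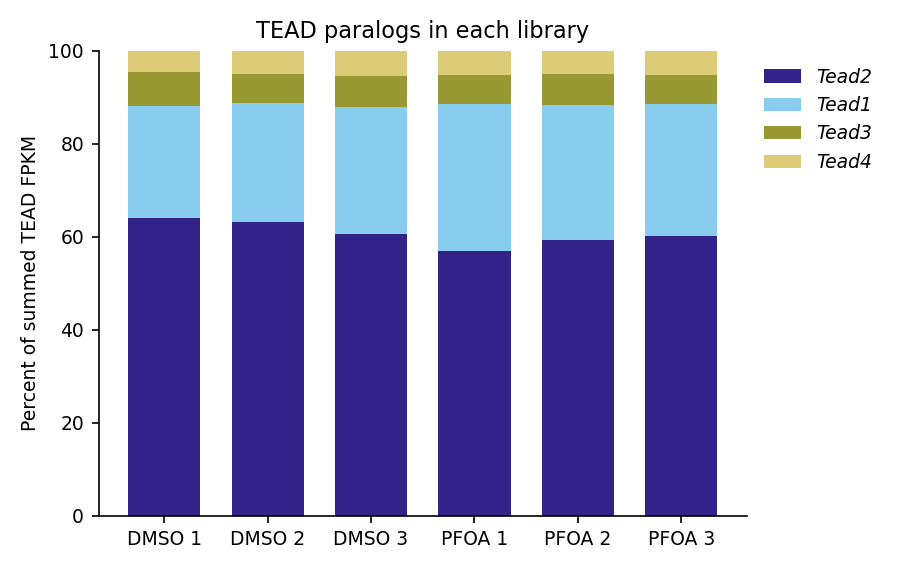
Stacked bars of the percent that Tead2, Tead1, Tead3 and Tead4 have of their summed FPKM, 1 bar per library. The Tead1 share is 24.1% to 27.4% in DMSO and 28.2% to 31.5% in PFOA, and the Tead2 share is lower in each PFOA library than in each DMSO library.

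Of the LATS kinases, which phosphorylate YAP and TAZ, Lats1 was the more abundant. Lats1 was 4.16, 3.86 and 4.08 FPKM in DMSO and 4.77, 4.26 and 3.63 in PFOA. The PFOA libraries spread to both sides of the DMSO values, and the log2 fold change was 0.047 (SE 0.085, limma adjusted p = 0.783), turning to −0.028 without PFOA 1. Lats2, which is itself a YAP-TEAD target gene, had the lowest level of the 10 genes, with 2.21, 2.04 and 2.06 FPKM in DMSO and 2.54, 2.34 and 2.26 in PFOA. Each PFOA value of Lats2 lay above each DMSO value. Its mean was 13.2% higher in PFOA, with a log2 fold change of 0.12 (95% confidence interval −0.035 to 0.28, limma adjusted p = 0.341), which the added 1 FPKM understates at this level. With a pseudocount of 0.1 it was 0.17 (limma adjusted p = 0.345). In GENCODE M21, 43.3% of the 50-nt words of the Lats2 transcripts also occur in the gene model Gm49361. For the other 9 genes the share of words found elsewhere was at most 0.326%. Gm49361 has no row of its own in the deposited table, so the Lats2 values are uncertain where counting could split such reads. The same limit holds for the order of Lats1 and Lats2, for their ratio and for the rank of Lats2 among the 10 genes.

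Lats1 exceeded Lats2 by 1.88, 1.89 and 1.98 times in DMSO and by 1.88, 1.82 and 1.61 times in PFOA. The highest PFOA ratio was just under the lowest DMSO ratio, and the means were 1.92 ± 0.0541 and 1.77 ± 0.143 (SD, n = 3 each; exact permutation p = 0.1, the smallest possible, adjusted p = 0.267). PFOA 3 had the lowest ratio, and without it the difference of the means went from −0.150 to −0.0691. With 1 library left out in turn, the difference ran from −0.205 to −0.0691.

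Groups without overlap, as for Tead1 and Lats2, were frequent in these data. Of all tested genes, 13.5% had each PFOA value above each DMSO value, 13.7% had each below, and 27.2% were separated in either direction. Among genes with a longest transcript of at least 4000 nt, 30.6% had PFOA above. Of the 10 pathway genes 2 were separated, both with PFOA above and both with such long transcripts. The count for the pathway was therefore near that of genes in general.

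Angiomotin and its relatives are junction proteins that bind YAP and LATS. Amot was 5.62, 5.21 and 5.46 FPKM in DMSO and 6.34, 6.08 and 5.19 in PFOA. PFOA 3 was the lowest of the 6 libraries and PFOA 1 and 2 the highest, so that the groups overlapped (log2 fold change 0.092, SE 0.074, limma adjusted p = 0.501). Without PFOA 1 the log2 fold change was 0.043, and without PFOA 3 it was 0.17. Amotl2, a junctional scaffold and YAP-TEAD target, was far more abundant, with 33.54, 31.65 and 32.39 FPKM in DMSO and 32.02, 32.78 and 33.93 in PFOA. It had the smallest log2 fold change of the 10 genes in size, a log2 fold change of 0.016 (95% confidence interval −0.077 to 0.11, limma adjusted p = 0.849). Amotl2 exceeded Amot by 5.97, 6.07 and 5.93 times in DMSO and by 5.05, 5.39 and 6.54 times in PFOA (exact permutation p = 0.5). The DMSO ratios lay close together, with an SD of 0.0742, and the PFOA ratios to both sides of them, with an SD of 0.779.

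Since FPKM is a level per length, the 10 genes can also be ranked. In DMSO the order was Tead2, Yap1, Tead1, Amotl2, Wwtr1, Tead3, Tead4, Amot, Lats1 and Lats2, from 84.3 down to 2.10 FPKM, and it was the same order in PFOA, from 79.4 down to 2.38. In DMSO the ranges of Tead1 and Amotl2 overlapped, and in PFOA no neighbours did, with Tead1 at 37.34 to 43.00 and Amotl2 at 32.02 to 33.93. Tead2 was above 90.5% of tested genes in mean level, Yap1 above 81.1% and Lats2 above 12.5%.

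**Figure D3:**
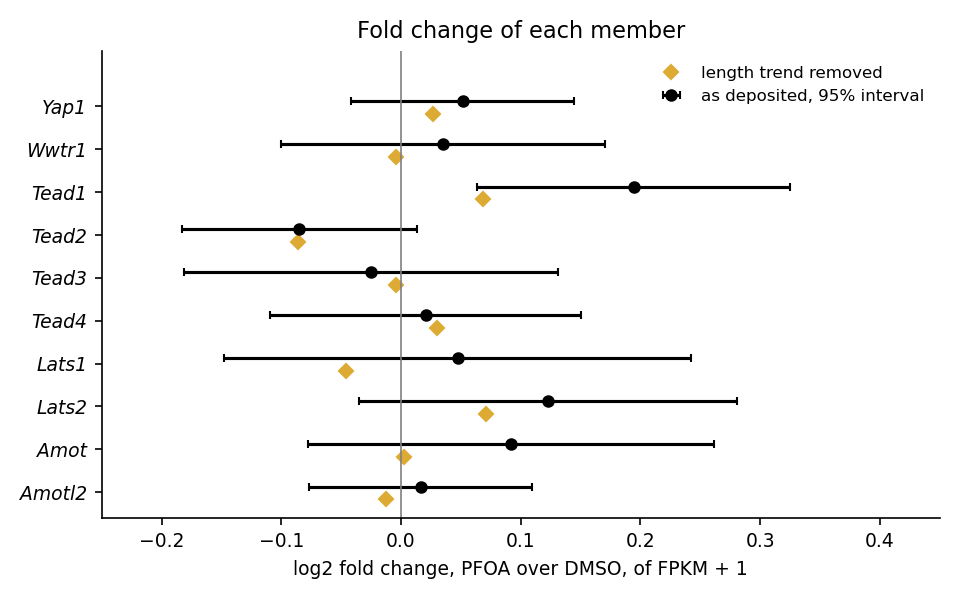
Log2 fold change of PFOA over DMSO for each of the 10 genes, on the scale of log2(FPKM + 1). Black points have 95% confidence intervals from limma and yellow diamonds give the value with the trend on transcript length removed; the interval of Tead1 alone lies above 0, and its diamond is at 0.069.

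Fold changes in these libraries moved with transcript length, which touches this gene set because most of its transcripts are long. Spearman's rho of the longest transcript with the log2 fold change was 0.595 across the tested genes, and genes are no independent replicates. Of 3850 genes with a longest transcript of at least 4000 nt, 77.8% were higher in PFOA, and of 7879 shorter genes 67.3% were lower. Of the 10 pathway genes, 7 are at least 4000 nt long, and all 7 were higher in PFOA. Of the other 3, all TEAD genes, 1 was higher and 2 lower.

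The longest Tead1 transcript has 9964 nt, against 3396 for Tead2, 2775 for Tead3 and 3076 for Tead4. In the 587 genes around a median length of 9613 nt the median log2 fold change was 0.13, and the upper quartile 0.18, just under the 0.19 of Tead1. With the per-library trend on length removed, Tead1 was at 0.069, and Lats2 at 0.071 in place of 0.12. Tead2 was at −0.085 before and −0.086 after the removal, and was then the gene farthest from 0. Yap1 was then at 0.027, Wwtr1 at −0.0043, Lats1 at −0.046, Amot at 0.0027 and Amotl2 at −0.013. The median of the 10 genes went from 0.041 to −0.00067, with 5 genes on each side of 0, and the smallest adjusted p in limma was 0.385.

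The TEAD shares drew closer in the same way. With the trend removed Tead1 was 25.4%, 26.8% and 27.7% of the TEAD sum in DMSO and 29.3%, 28.3% and 28.2% in PFOA, and Tead2 was 63.1%, 62.3% and 60.3% against 58.7%, 59.9% and 60.3%. The groups still did not overlap, by a margin under 0.1 percentage points for Tead2, and the difference of the Tead1 share fell from 3.78 to 1.96 points. The ratio of Lats1 to Lats2 did not draw closer. With the trend removed it was 1.92, 1.93 and 1.98 in DMSO and 1.82, 1.80 and 1.61 in PFOA, with a wider gap between the groups.

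**Figure D4:**
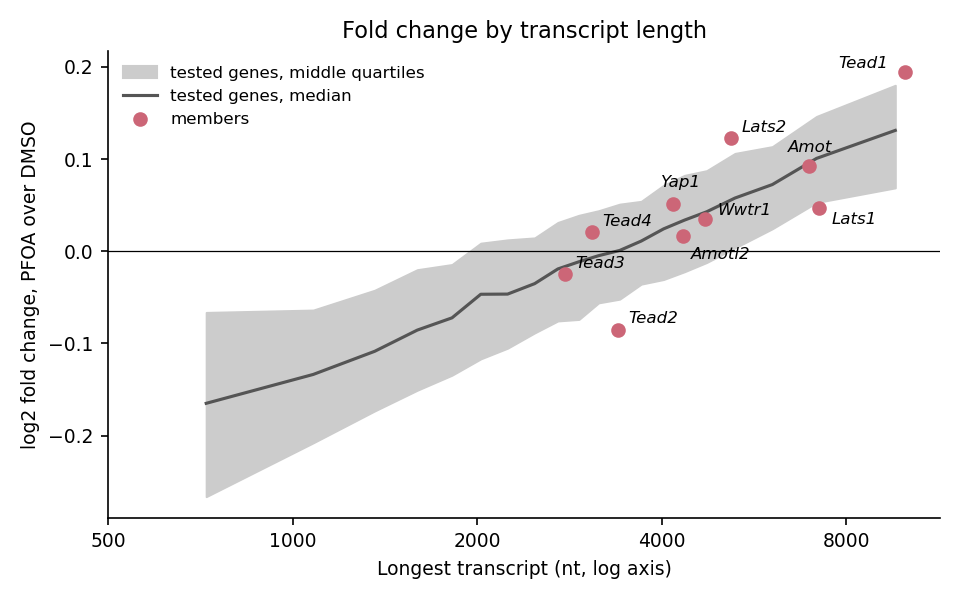
Log2 fold change against the longest transcript of a gene, on a log axis. The line is the median and the grey band the middle quartiles of 20 equal groups of tested genes, and the red points are the 10 pathway genes: Tead1, at 9964 nt, has the highest value, while Tead2 lies below the band for its length and Lats2 above it.

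The transcripts through which the kinases and their regulators act on YAP were read from a list of 42 core and upstream genes, of which 38 were tested. Of these, 28 were higher and 10 lower in PFOA, and 0 were called; at an unadjusted p under 0.05 in limma 6 were higher and 0 lower, against 8.56% and 12.5% of all tested genes. The median longest transcript of the list was 4514.5 nt. Of 3850 genes with a longest transcript of at least 4000 nt, 808 were higher and 72 lower at the same unadjusted p in limma. The list's median log2 fold change was 0.038, and 0.013 with the trend on length removed, then with 26 genes higher and 12 lower. The MST kinase gene Stk3 was 13.2 ± 0.98 FPKM in DMSO and 13.03 ± 0.26 in PFOA, and Stk4 27.0 ± 0.54 and 28.9 ± 0.28 (SD, n = 3 each). Sav1, the scaffold of the MST kinases, was 17.8 ± 0.057 and 18.6 ± 0.69. The LATS cofactors Mob1a and Mob1b were 34.2 ± 1.8 and 36.1 ± 0.69, and 3.47 ± 0.48 and 3.76 ± 0.63. Nf2 (merlin), a membrane-linked activator of LATS, was 42.2 ± 0.66 and 43.8 ± 2.4. The PFOA values of Stk4 and Sav1 lay above all DMSO values, and those of the other 4 overlapped with them. For Sav1 the gap was only from 17.87 FPKM in DMSO 1 to 17.88 in PFOA 1 (unadjusted p = 0.217 in limma). Of the 38 tested genes of the list, 11 had each PFOA value above each DMSO value and 0 had each below. That held for 13.5% and 13.7% of all tested genes. Of 3850 genes with a longest transcript of at least 4000 nt, it held for 1178 and 130.

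The smallest p-values of that list belonged to genes with long transcripts. The atypical cadherin Fat1 was 22.94, 23.06 and 26.00 FPKM in DMSO and 33.58, 29.17 and 27.43 in PFOA, without overlap and with PFOA 1 farthest from the controls. Its log2 fold change was 0.31 (SE 0.078, limma adjusted p = 0.128), and 0.15 with the trend on length removed (limma adjusted p = 0.263). Amotl1, the third angiomotin, was 5.76 ± 0.30 and 6.62 ± 0.29, a log2 fold change of 0.17 that became 0.058. Taok1, a kinase upstream of the MST kinases, was 8.51 ± 0.21 and 9.55 ± 0.59, a log2 fold change of 0.15 that became 0.0011. Their longest transcripts have 14814, 8957 and 12409 nt.

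Target genes are commonly read as the output of YAP and TEAD. Promoter windows of 250 bases upstream of the RefSeq gene starts (build GRCm38.p6, which is not the build of the deposited values) were searched for GGAATG on either strand. It was found in 12.6% of 32851 windows. A gene can have several windows, and counted by gene, 14.4% of 27025 had a match in at least 1 of theirs. That held for 4 of the 8 pathway genes with an entry, Yap1, Wwtr1, Tead3 and Amotl2, and for 4 of 16 target genes with an entry. A match is a description of these letters and not a measured binding site. Lats2, named above as a target, had 0 matches in its windows, as did the target genes Nt5e, Igfbp3 and Anln. The windows of Yap1, Amotl2 and the target genes Ccn1 and Ankrd1 are shown as examples with a match, and capitals mark the motif.
Yap1 (chr9:8004597-8004846, minus strand): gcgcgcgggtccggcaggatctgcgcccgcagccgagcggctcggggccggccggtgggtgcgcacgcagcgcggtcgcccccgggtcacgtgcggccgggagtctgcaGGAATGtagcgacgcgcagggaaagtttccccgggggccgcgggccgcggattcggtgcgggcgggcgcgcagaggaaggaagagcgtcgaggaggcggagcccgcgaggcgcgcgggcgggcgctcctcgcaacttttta
Amotl2 (chr9:102717554-102717803, plus strand): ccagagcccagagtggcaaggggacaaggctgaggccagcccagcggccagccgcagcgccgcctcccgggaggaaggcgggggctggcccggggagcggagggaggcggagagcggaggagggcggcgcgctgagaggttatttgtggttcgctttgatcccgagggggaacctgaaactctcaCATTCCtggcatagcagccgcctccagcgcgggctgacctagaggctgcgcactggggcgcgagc
Ccn1 (chr3:145649986-145650235, minus strand): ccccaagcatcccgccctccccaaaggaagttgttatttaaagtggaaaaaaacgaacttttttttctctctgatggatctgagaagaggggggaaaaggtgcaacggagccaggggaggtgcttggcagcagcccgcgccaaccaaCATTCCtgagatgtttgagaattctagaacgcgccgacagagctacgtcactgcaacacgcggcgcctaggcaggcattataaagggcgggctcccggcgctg
Ankrd1 (chr19:36119845-36120094, minus strand): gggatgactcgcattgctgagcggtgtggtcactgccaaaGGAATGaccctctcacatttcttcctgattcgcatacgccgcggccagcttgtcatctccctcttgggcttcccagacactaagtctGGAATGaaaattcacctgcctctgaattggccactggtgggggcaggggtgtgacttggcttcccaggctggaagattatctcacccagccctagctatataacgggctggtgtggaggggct

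The transcripts of these genes were at very different levels. Ankrd1, which has 2 matches in its window, was at most 0.20 FPKM in any library and was not tested. Ccn1 (Cyr61), a secreted matricellular protein, was 22.42, 21.90 and 24.37 FPKM in DMSO and 22.63, 25.56 and 24.54 in PFOA. Ccn2 (Ctgf), its close relative, was 21.42, 20.94 and 20.22 in DMSO and 18.78, 19.32 and 21.76 in PFOA. The 2 genes, which are commonly read as YAP targets, leaned in opposite directions, with log2 fold changes of 0.079 (SE 0.058) and −0.063 (SE 0.058), limma adjusted p = 0.463 and 0.558, and overlapping groups for both.

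Of 24 target genes 18 were tested, 12 of them higher and 6 lower in PFOA; the median log2 fold change was 0.071, and 0 were called; at an unadjusted p under 0.05 in limma 2 were higher and 2 lower, against 8.56% and 12.5% of all tested genes. With the trend on length removed the median was 0.036, with 10 higher and 8 lower. The actin-binding protein anillin (Anln), which acts in cytokinesis, was 36.47, 36.67 and 37.67 FPKM in DMSO and 41.56, 42.31 and 40.19 in PFOA, with a gap between the groups. Its log2 fold change was 0.16 (SE 0.037, limma adjusted p = 0.127), and 0.12 with the trend on length removed (limma adjusted p = 0.262). The ectonucleotidase Nt5e (CD73) was 7.46 ± 0.58 and 8.48 ± 0.56, with overlapping groups. Igfbp3, which binds insulin-like growth factors, was 12.5 ± 0.39 in DMSO and 11.3 ± 0.12 in PFOA, each PFOA value below each DMSO value. Its log2 fold change was −0.13 (limma adjusted p = 0.173), and −0.092 with the trend on length removed (limma adjusted p = 0.385). Of the 18 tested target genes, 2 had each PFOA value above each DMSO value and 3 had each below. That held for 13.5% and 13.7% of all tested genes.

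The lineage genes that depend on TEAD4 in the embryo were the last group. Of 7 genes 6 were tested, 2 higher and 4 lower. The median log2 fold change was −0.037, with 0 called and 0 at an unadjusted p under 0.05 in limma. The 4 lower genes include Sox2, which depends on TEAD4 in the opposite direction to Cdx2 and Gata3. The count and the median therefore mix directions and are no reading of TEAD4 output. Removal of the trend on length left a median of −0.011, with 3 genes higher and 3 lower. Cdx2, the trophectoderm transcription factor, was 8.40, 6.67 and 6.11 FPKM in DMSO and 5.90, 6.50 and 7.23 in PFOA. Gata3, which acts beside it, was 4.46, 4.02 and 3.68 in DMSO and 4.06, 3.63 and 3.72 in PFOA. DMSO 1 was the highest library for both, and the groups overlapped (log2 fold changes −0.089 and −0.071, limma adjusted p = 0.666 and 0.618). Cdx2 was at −0.045 and Gata3 at −0.066 with the trend on length removed. With DMSO 3 as the sole control their log2 fold changes were 0.082 and 0.036, and the median of the list was 0.056. The simple-epithelial keratin Krt8 was 223.1 ± 19 and 207.3 ± 18. Sox2, which nuclear YAP and TEAD4 keep low in outer cells, was 140.3 ± 7.4 and 139.96 ± 1.5 (SD, n = 3 each), with a log2 fold change of −0.0020 (95% confidence interval −0.10 to 0.099).

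**Figure D5:**
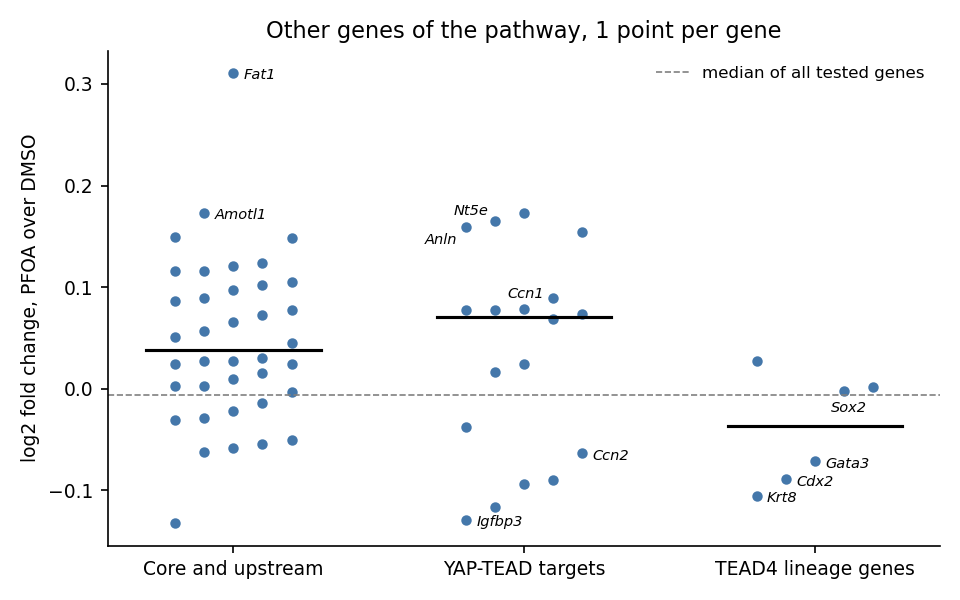
Log2 fold change of PFOA over DMSO, 1 point per tested gene, for core and upstream genes, YAP-TEAD targets and TEAD4-dependent lineage genes, with a bar at each median and a dashed line at the median of all tested genes. The medians are 0.038, 0.071 and −0.037, and Fat1 has the highest value, 0.31.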

How the data were processed

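Gene expression was measured by RNA-seq of polyadenylated RNA on a BGISEQ-500, in 3 DMSO and 3 PFOA libraries, grouped by their titles. The authors deposited FPKM, 1 column per library, to 2 decimals, per the file headers and values. HISAT2 2.0.4, Bowtie2 2.2.5 and the build GRCm39 stand in the submitters' processing notes. Not given in the sources used here are the role of each tool, the quantification tool and the annotation. Depth is unknown: of 210 low values compared with the smallest value of their gene, 57.1% were whole multiples to within 0.15, too few to recover reads, and count models were not used.

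Values were analysed as log2(FPKM + 1) for the 11876 genes whose mean FPKM reached 1. The fit was made with limma 3.58.1 under R 4.3.3, using an intensity trend, two-sided, Benjamini-Hochberg adjusted over all of them and called under 0.05. The fit was tested on simulated data. Sums, shares and ratios used exact permutation tests over libraries. Transcript lengths came from GENCODE M21 (98.8% of tested genes had one); for the trend on length a lowess curve (span 0.3) of each library's deviations was subtracted. Promoters came from RefSeq, GRCm38.p6.

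The members, the gene lists and the tests were chosen with earlier results of these data known. Genes named beside the 10 members were Stk3, Stk4, Sav1, Mob1a, Mob1b, Nf2, Amotl1, Ccn1, Ccn2, Ankrd1, Cdx2, Gata3 and Sox2 whatever their values. The 3 tested genes with the smallest p of each list were named as well. Pou5f1, Nanog, Dppa5a and Krt18 are named from the marker lists. Alternatives were another pseudocount, filter, scaling and variance prior, a replicate block, the length trend, each library left out, and DMSO 1 and 2 left out together.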

Additional observations from a re-analysis of the deposited data

How the results depend on the processing

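Under 15 alternatives, 0 of 148 values of the 10 genes passed an adjusted p of 0.05 in limma, and 137 kept their sign; Lats1 and Lats2 have no value with a mean FPKM of at least 5. Signs turned for Wwtr1 (−0.0043 with the length trend removed, −0.011 without DMSO 2, −0.00047 without PFOA 3; −0.011 to 0.080 over libraries left out), Lats1 (−0.046 with the trend removed, −0.028 without PFOA 1; −0.028 to 0.13 over libraries left out), Amotl2 (−0.013 with the trend removed, −0.0025 without DMSO 2, −0.0052 without PFOA 3), Tead3 (0.038 without DMSO 1) and Tead4 (−0.014 without DMSO 1, −0.050 with DMSO 3 as the sole control). Over all genes, 0 were called higher and 1 lower; lower calls went to 0 without the filter, with the replicate block, with the length trend removed, without the variance trend and with DMSO 3 as the sole control. Leaving out 1 library gave 0 to 13 higher, 13 without DMSO 3 and 3 without PFOA 2, and 0 to 91 lower, 91 without PFOA 2 and 39 without DMSO 3; members called stayed at 0. The median of the 10 genes was 0.021 to 0.062 with 1 library left out and −0.00067 with the length trend removed. The core and upstream median was 0.063 under quantile normalization and 0.013 with the length trend removed, and 0.032 to 0.050 with 1 library left out. The target median was 0.020 without the filter, 0.036 with the length trend removed, 0.017 with DMSO 3 as the sole control and 0.039 to 0.068 with 1 library left out, lowest without PFOA 1. The lineage median was 0.056 with DMSO 3 as the sole control and −0.080 to 0.0064 with 1 library left out. The TEAD sum differed by 3.48 FPKM under quantile normalization and by −3.03 with the length trend removed, where the Tead1 share differed by 1.96 points, against 0.173 FPKM and 3.78 points as deposited. Unless stated, the cause was not tested. Whether equal replicate numbers mark paired libraries is not labelled. Deviations from the group means of DMSO and PFOA libraries of the same number correlated at −0.107, −0.0095 and −0.138 across genes. Libraries of unlike number correlated at −0.065 to 0.148. Deviations within a group are not independent, so these values cannot settle whether the libraries were handled in pairs. The replicate block changed no call among the 10 genes. Unknown depth limits the low genes most, Lats2 first.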
